A study of Procambarus virginalis with 6 samples.

Results

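The 100 features described here are those with the highest levels in 1 class of marbled crayfish hemocytes, called H cells below. They were chosen by measured values. Cells with 100 to 2000 features were kept, and a cell was an H cell where 5 defining features held at least 1% of its unique molecular identifiers (UMIs, each standing for 1 captured transcript). In each library with at least 20 H cells the level of every feature, in CPM (UMIs scaled to a common library total) with 10 added, was divided between the summed H cells and the summed other cells, and the median ratio over libraries ranked the features. The members are the top 100 of 6304 features with at least 50 UMIs, out of 72982 counted, with the 5 defining features left out. Levels in H against other cells are therefore a description for Ctrl1, Ctrl2, KD1 and KD2, which ranked the features. Ctrl3 and KD3 had too few H cells to take part in the ranking, but their UMIs counted toward the minimum of 50.

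Hemolymph was drawn from 6 animals of *Procambarus virginalis*, a crayfish whose animals all descend by parthenogenesis from 1 clone. The 3 control animals (Ctrl1 to Ctrl3) had received dsRNA against GFP and the 3 knockdown animals (KD1 to KD3) dsRNA against *Dnmt1*, the maintenance DNA methyltransferase. All were sampled 28 days after injection, and each gave 1 droplet library on the 10X Genomics platform. The dsRNA went into the hemolymph, so the knockdown was not limited to a cell type, and the level of *Dnmt1* was not analysed here.

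Hemocytes are the circulating cells of crustaceans and carry out much of their immune defence. Semigranular and granular cells differ in their content of granules. Crayfish go on making neurons as adults, and cells from the blood are a source of their precursors, the hemocyte-derived neuronal precursors (HDNPs). The label HDNP-like for the H cells rests on the 5 defining features alone. No feature is paired with a gene name in the files used here, so neither the label nor the role of any member could be checked against known genes, and the members are given by identifier.

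The libraries differed in depth and shared cell barcodes. After filtering they held 622 to 5318 cells, with a median of 223 to 1258 UMIs per cell. KD2 shared 484 of its 999 barcodes with other libraries, 238 of them with Ctrl3 and 227 with KD1. Of the cells kept in both KD1 and KD2 under 1 barcode there were 110, of which 15 were H cells in KD1 and 8 in KD2. The 8 were H cells in both libraries and the rest of the 15 in KD1 only, at medians of 170 UMIs in KD2 and 2834.5 in KD1. Ctrl3 and KD2 kept 113 such cells, 2 of them H cells, and the same 2 in both. Ctrl1 shared no barcode and KD3 shared 1. Whether these are the same cells was not tested. The H cell shares, the list, the summed member shares and the medians of the KD comparison are also given without shared barcodes, while values per cell, thinned values and lists made with a library left out are given with them only.

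H cells made up 707 of 11521 cells. Ctrl1 held 538 of 5318 cells (10.1%, exact interval 9.32 to 10.96%), Ctrl2 27 of 1196 (2.26%) and Ctrl3 18 of 622 (2.89%). KD1 held 71 of 881 (8.06%) and KD2 51 of 635 (8.03%). KD3 held only 2 of 2869 (0.0697%, exact interval 0.00844 to 0.252%). The intervals are Clopper-Pearson at 95% and cover counting error only. The groups overlapped, at 5.09% ± 4.37 (SD, n = 3) of control cells and 5.39% ± 4.60 (SD, n = 3) of KD cells. Without shared barcodes the H share was 3.88% in Ctrl3, 8.41% in KD1 and 10.1% in KD2. The cut at 1% was not far from many cells. There were 146 H cells between 1 and 2%, 385 other cells between 0.5 and 1%, and 48 H cells with under 3 defining UMIs.

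In H cells the members were a large part of the captured RNA. Together they took 8.51% of the UMIs of the H cells in Ctrl1, 9.91% in Ctrl2, 11.7% in KD1 and 8.91% in KD2. In the other cells of the same libraries they took 0.565, 0.736, 1.04 and 1.13%. In the libraries that did not rank them, the members took 13.1% of H cell UMIs against 0.805% of the rest in Ctrl3, and 8.08 against 0.189% in KD3. KD3 thus had 2 cells with the members at a level like that of the other libraries, and the lowest level in the remaining cells. In KD3 the 6 features that lead the counterpart of granular cells took 29.5% of the UMIs of other cells, the highest share of any library, against 6.94 to 16.3% in the rest. Its part in the low member share was not tested.

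The share was high cell by cell and not through a few cells. The median H cell had 7.91 to 10.7% of its UMIs in members in every library, while the median other cell had 0.136 to 0.881%. In Ctrl1, 428 of 538 H cells reached 5%, and 16 of 4780 other cells did. In KD1 the counts were 68 of 71 and 25 of 810, and all 25 of those other cells had at least 1 UMI of a defining feature, as did 68.0% of all other cells of KD1. In KD2 they were 36 of 51 and 30 of 584, with a defining UMI in 15 of the 30 and in 27.6% of all other cells. H cells under 2% were 16 in Ctrl1, 5 in KD2, 1 in Ctrl2 and none elsewhere. Within the H cells of a library, the share in defining features and the share in members rose together, with a Spearman rho of 0.69 in Ctrl1, 0.66 in Ctrl2, 0.83 in KD1 and 0.68 in KD2. These correlations are over 27 to 538 cells, each of a single library, and both shares have the same total below them. The members were also chosen in these same libraries for high levels in cells with a high defining share. The correlations therefore describe the list and do not test it.

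**Figure D1:**
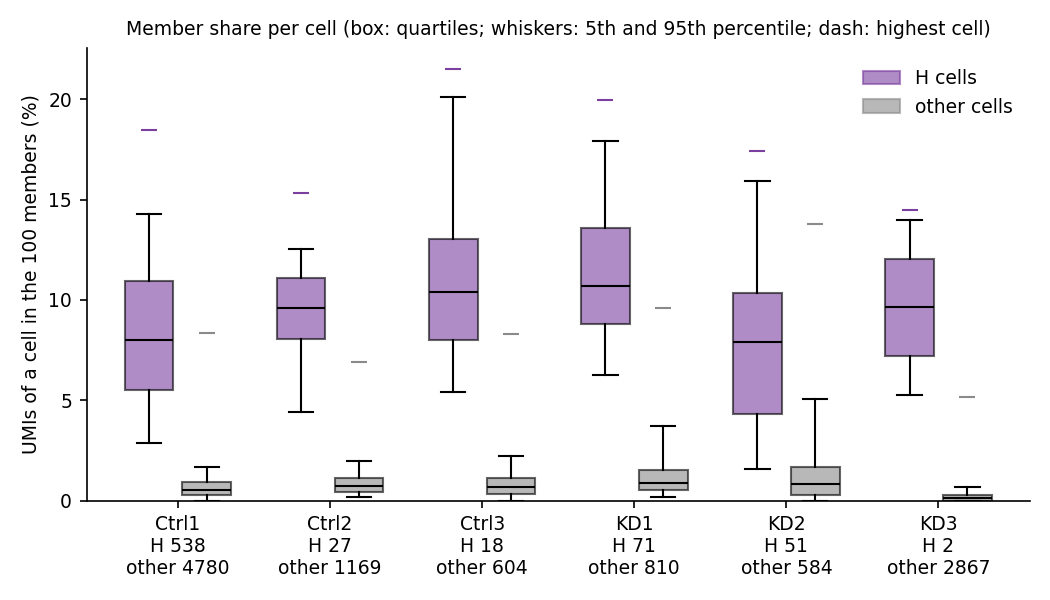
Share of each cell's UMIs in the 100 members (y axis, %) for H cells (purple) and other cells (grey) of the 6 libraries. Boxes are quartiles with the median as a line, whiskers the 5th and 95th percentile and dashes the highest cell. Medians of H cells lie between 7.91 and 10.7% and those of other cells between 0.136 and 0.881%.

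The gap was also present at equal depth. When every cell was thinned to 150 UMIs, with the classes kept, the median H cell showed 10, 11 and 12 members with a UMI in Ctrl1 to Ctrl3, 13 in KD1 and 9 in KD2. The median other cell showed 1 in each of these. In KD3 the 2 H cells showed 11 and 16 members, against a median of 0. Cells under 150 UMIs were left out, namely 30 H and 10 other cells of Ctrl1 and 10 H and 55 other cells of KD2. Unthinned, the median H cell showed from 12 members in KD2 to 45 in KD1, in the order of depth, and the median other cell 1 to 9. When the H cells were chosen again after thinning, KD3 had 11 of them with only 2.55% of UMIs in members, while the other libraries kept 6.38 to 9.59%.

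Features of the other hemocyte counterparts were not raised in the summed H cells. The 6 granular cell features took 2.56 to 5.35% of H cell UMIs against 6.94 to 29.5% in other cells, and the single semigranular cell feature 0 to 0.186% against 0.0979 to 0.717%. Cell by cell the order was the opposite, with a higher granular share in the median H cell (2.51 to 5.68%) than in the median other cell (1.30 to 2.89%). The 2 features of the prohemocyte counterpart had no UMI in H cells except in Ctrl1, at 0.0150%. These lists are leading features of clusters from an earlier analysis of the same libraries. Their part in the member values was not tested.

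The levels of the single members spanned a wide range. The member with the highest ratio was WNGS01169498.2669014_6_covsplit, with a median ratio of 45.0. It stood at 2280 CPM in H cells of Ctrl1, 1629 in Ctrl2, 1234 in KD1 and 1212 in KD2, and at 21.4, 3.44, 53.2 and 34.1 CPM in the other cells. In the libraries that took no part in the ranking, it had 685 CPM in H cells of Ctrl3 (11 UMIs) against 8.56, and 1 UMI in the 2 H cells of KD3. No library had a level in other cells near that in its H cells. A UMI of it was found in 38.5% of H cells of Ctrl1 and 69.0% of those of KD1, against 0.628 and 2.84% of other cells, at medians of 209.5 and 1466 UMIs per H cell and 287 and 1240.5 per other cell.

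WNGS01006708.474335_0_covsplit, at a median ratio of 31.4, was the steadiest of the 10 highest. Its ratio was 42.5 in Ctrl1, 37.7 in Ctrl2, 22.45 in KD1 and 26.2 in KD2, and 46.4 in Ctrl3. WNGS01135237.1641606_0_covsplit (median ratio 31.5) ranged from 15.6 in KD2, where it had 4 UMIs in H cells, to 108 in Ctrl2. WNGS01160430.1885661_0_covsplit (23.5) ranged from 10.7 in KD2 to 213 in Ctrl2, the widest of the 10. The rest of the 10 were WNGS01072140.1109832_0_covsplit (30.1), WNGS01111181.1401803_0_covsplit (28.6), WNGS01042707.877377 (25.9), WNGS01042707.846606_0_covsplit (25.7), WNGS01164437.2133874_0_covsplit (25.04) and WNGS01165503.2342295_0_covsplit (23.4). Of these, WNGS01165503.2342295_0_covsplit was the most abundant, at 1425 to 4110 CPM in the H cells of the ranking libraries and 3611 in Ctrl3. WNGS01164437.2133874_0_covsplit was at only 86.8 CPM in Ctrl1 (11 UMIs in 538 H cells) but at 529 to 727 in Ctrl2, KD1 and KD2.

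The most abundant members were others, with lower ratios. WNGS01160430.1871326_0_covsplit held 2249 UMIs in H cells, at 6807, 6108 and 10336 CPM in the 3 controls and at 8248 in KD1 and 9208 in KD2. Its level in other cells was 426, 563, 652, 693 and 993 CPM in the same order, and its median ratio was 11.2. A UMI of it was found in 71.2 to 100% of H cells of these 5 libraries and in 13.5 to 53.5% of other cells. WNGS01169217.2609422_0_covsplit held 2204 UMIs in H cells with a median ratio of only 6.30, at 6544 to 10896 CPM in H cells and 961 to 1476 in other cells of those 5 libraries. In the 2 H cells of KD3 it had 10 UMIs (9074 CPM), against 268 CPM in other cells, the lowest of the 6 libraries. The next 3 by UMIs were WNGS01167372.2522151_0_covsplit (1576 UMIs, median ratio 6.89), WNGS01000411.36791_3_covsplit (1417, 8.81) and WNGS01004511.295110_2_covsplit (1309, 8.51).

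**Figure D2:**
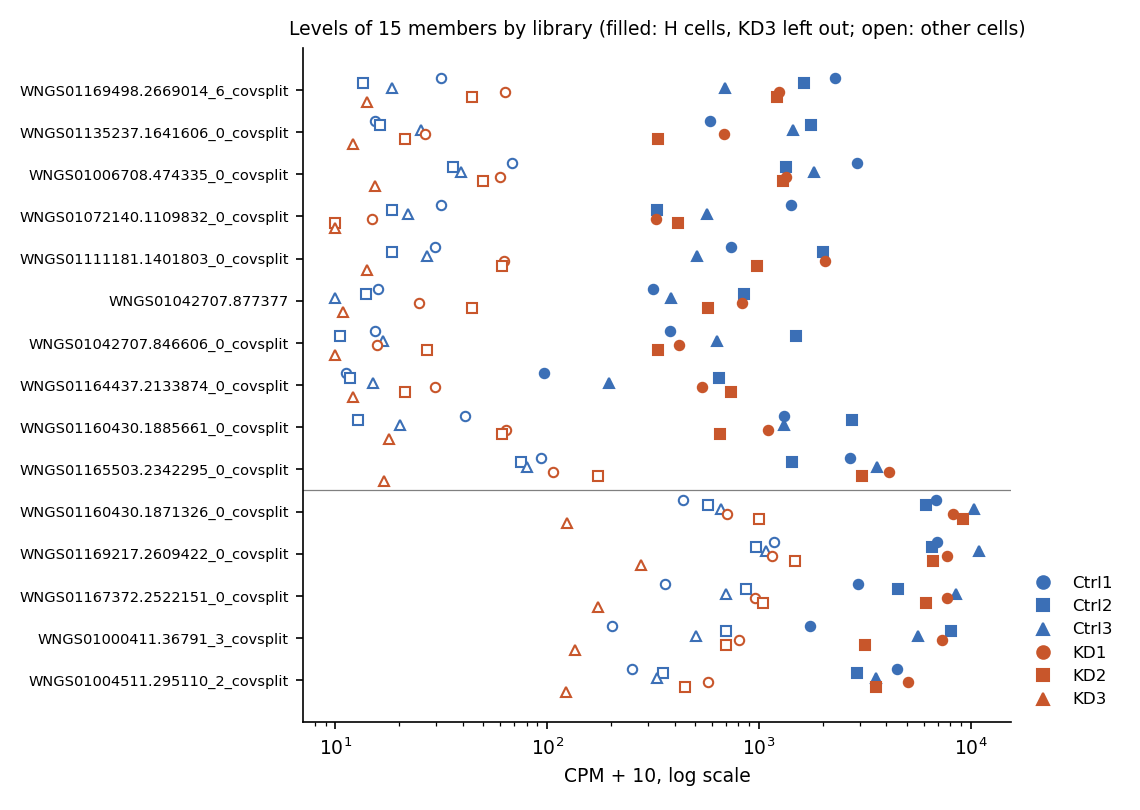
CPM with 10 added on a log scale (x axis) of the 10 members with the highest ratio (above the line) and the 5 with the most UMIs in H cells (below it), by library. Filled points are H cells, without KD3, and open points are other cells. The first 10 reach at most 4110 CPM in H cells, and WNGS01160430.1871326_0_covsplit lies at 6108 to 10336 CPM in H cells and at 114 to 993 CPM in other cells.

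A small number of members held most of the RNA. Among the UMIs of members in H cells, the 5 most abundant held 29.1%, the 10 most abundant 47.8% and the 20 most abundant 68.4%. The 18 members with at least 1000 UMIs over all cells held 63.9% and had a median ratio of 8.27. The 82 with fewer had a median ratio of 11.8. The abundant members were also found outside the class. A median of 32.2% of the UMIs of the 18 lay in H cells, against 59.5% for the 82. Of all 100, 64 had over 50% of their UMIs in H cells, and the share ranged from 23.3% in WNGS01165751.2409227_31_covsplit to 89.3%.

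The list had no sharp lower edge. The median ratio was 6.133 for WNGS01003388.240585_4_covsplit (rank 98), 6.130 for WNGS01165751.2409227_31_covsplit (rank 99) and 6.128 for WNGS01092210.1242726 (rank 100). Just outside it were WNGS01165751.2411518_3_covsplit at 6.084, WNGS01165503.2342933_0_covsplit at 6.063 and WNGS01163555.2049449_0_covsplit at 6.032. The last of these had 445 UMIs in H cells, and WNGS01092210.1242726 had 137. Of the 100 members, 76 had a median ratio over 8 and 20 over 16, and the median of the list was 11.1.

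Members differed in how steady they were between libraries. WNGS01072847.1114099_4_covsplit had the narrowest range, with a ratio of 10.4 in Ctrl1, 12.7 in Ctrl2, 10.85 in KD1 and 10.95 in KD2, and it was at 21.7 in Ctrl3. WNGS01164447.2189009_0_covsplit followed, at 7.87, 8.77, 7.09 and 6.83, and at 5.65 in Ctrl3. The pair with the widest range had no UMI in the H cells of some libraries. WNGS01117529.1540802_0_covsplit had ratios of 15.1 in Ctrl1, 62.1 in Ctrl2 and 7.74 in KD1, but no UMI in the H cells of KD2. Those cells held 12381 UMIs, so 1 UMI there was 80.8 CPM, while this member stood at 92.8 CPM in H cells of KD1. Its absence from KD2 thus cannot be told from a level like that of KD1. WNGS01092210.1242726 had a ratio of 54.5 in Ctrl1 from 113 UMIs in H cells and 9.61 in KD1 from 22, but 1 UMI in H cells of Ctrl2 and none in KD2 or Ctrl3. Over all members the range between the 4 libraries had a median of 2.04 on the log2 scale, which was 1.14 for the 18 abundant members and 2.32 for the other 82.

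Ctrl3 was a check of the list in an animal the rule had not used. There 92 of the 100 members were at least 2-fold higher in H cells, against 21.7% of the 6304 features eligible for the list. The other 8 members had no UMI in the 18 H cells. The median member was higher by 4.01 on the log2 scale, and the median eligible feature stood at -0.89. Only 40.1% of eligible features (2525) had any UMI in those cells, and 1367 were at least 2-fold higher. There 1 UMI was 62.3 CPM in H cells. Any UMI thus put a feature that was low in other cells at least 2-fold higher. Without the barcodes that Ctrl3 shared, 16 H cells were left and 89 members were at least 2-fold higher, against 19.5% of eligible features. In KD3 the 2 H cells held 1102 UMIs, 42 members were at least 2-fold higher and the other 58 had no UMI, against 6.71% of eligible features at least 2-fold higher and 7.92% with any UMI. In those 2 cells 1 UMI was 907 CPM, so the same held there.

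The ranking was also repeated with 1 library left out and read in that library. A list made without Ctrl1 had 81 of 100 features at least 2-fold higher in Ctrl1, against 10.8% of the features eligible for that list. The list without Ctrl2 had 99 (22.4%), that without KD1 95 (14.7%) and that without KD2 87 (22.8%). In the H cells of KD2 1 UMI was 80.8 CPM, and 36.6% of the 6304 features had any. There too any UMI put a feature that was low in other cells at least 2-fold higher. KD1 and KD2 shared 227 barcodes, which were kept when the lists were made. These lists shared 80, 81, 72 and 91 features with the members, in the same order. Of the 4 ranking libraries, KD1 was the one whose absence changed the list most and KD2 the least. With shared barcodes left out of all libraries, 87 of the 100 members were still on the list.

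**Figure D3:**
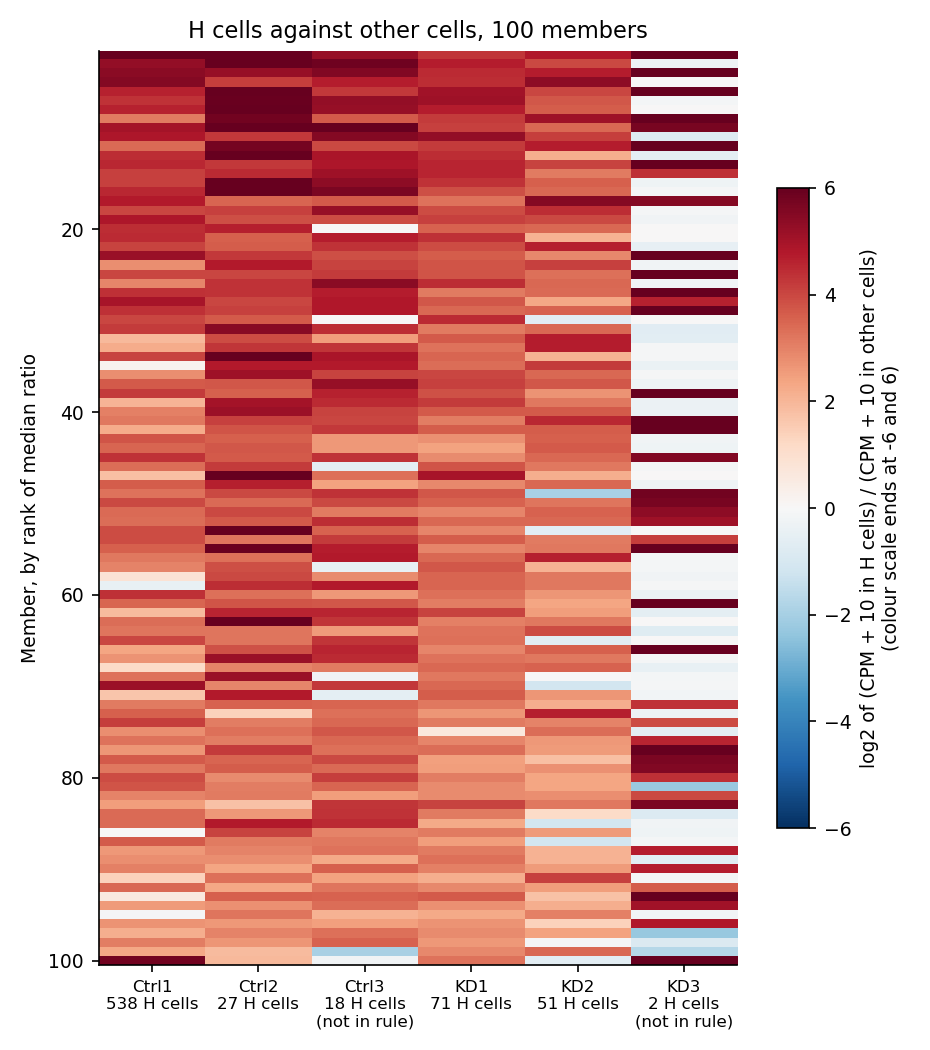
Ratio of H cells to other cells for the 100 members (rows, by rank) in 6 libraries (columns), as log2 of the ratio of CPM with 10 added, with red for higher in H cells. Ctrl3 and KD3, marked as not in the rule, took no part in the ranking. Ctrl3 is red in 92 rows, and KD3, with 2 H cells, is pale or blue in the 58 rows with no UMI in those cells.

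The members came from 72 contigs of the assembly. Of these, 19 contigs held at least 2 members (47 members in all), and 53 members were alone on theirs. On the 4 contigs of the defining features lay 4 members, against 3.57% of eligible features. Identifiers ending in covsplit, whose meaning is not given in the sources used here, belonged to 87 members and to 84.6% of eligible features. Features with neighbouring numbers may share reads, which the counts do not show. The numbers in the identifiers are labels and are not read as positions.

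Contigs with at least 3 members or defining features numbered 9. WNGS01111181 held 4 members, WNGS01111181.1401803_0_covsplit at a median ratio of 28.6 and WNGS01111181.1432538, WNGS01111181.1444672 and WNGS01111181.1401820_0_covsplit at 13.8, 12.4 and 7.97. WNGS01165751 also held 4, from WNGS01165751.2413628_0_covsplit at 13.02 through WNGS01165751.2415392 at 8.69 and WNGS01165751.2415783_0_covsplit at 6.31 to WNGS01165751.2409227_31_covsplit at 6.13. Members of 1 contig thus did not share 1 ratio.

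WNGS01169498 carried the member of the highest ratio and WNGS01169498.2661127 and WNGS01169498.2636810_0_covsplit at 16.01 and 12.5. WNGS01042707 carried 2 of the 10 highest, WNGS01042707.877377 and WNGS01042707.846606_0_covsplit, with WNGS01042707.846604_2_covsplit at 14.9. WNGS01028583.737164_3_covsplit stood at 14.7, with WNGS01028583.732977 and WNGS01028583.733047_0_covsplit at 9.004 and 6.90. The ranks were 1, 20 and 41 on WNGS01169498, 6, 7 and 26 on WNGS01042707, and 28, 70 and 89 on WNGS01028583.

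On WNGS01159612 the ratios were 15.4 for WNGS01159612.1850744_0_covsplit, 11.9 for WNGS01159612.1850721_1_covsplit and 10.1 for WNGS01159612.1853083_1_covsplit, each with 30 to 50 UMIs in H cells. On WNGS01092210 they were 9.19 for WNGS01092210.1242852_0_covsplit and 7.79 for WNGS01092210.1243224_1_covsplit, beside WNGS01092210.1242726 at the end of the list. The last 2 contigs also carry defining features. WNGS01109635 held WNGS01109635.1378229_3_covsplit (11.003) and WNGS01109635.1377006_1_covsplit (9.78). WNGS01167840, with 2 of the 5 defining features, held WNGS01167840.2551286_0_covsplit (11.7), whose ratio ran from 3.47 in Ctrl1 to 83.5 in Ctrl2.

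The comparison of KD with control animals asked whether members stood at other levels in the H cells, in the rest of the cells or in all cells of the KD animals. The rule did not use this contrast. Summed UMI counts per animal were tested over all features with the quasi-likelihood test of edgeR. In H cells the test had 2 animals against 2 (Ctrl1, Ctrl2, KD1 and KD2), since Ctrl3 and KD3 had under 20 H cells. No member changed at an adjusted p under 0.05, with 91 of the 100 tested, and neither did any of the 875 features tested (0%). At an unadjusted p under 0.05 there were 2 members (2.2%), against 22 features in all (2.51%). DESeq2 called 0 features at an adjusted p and 30 at an unadjusted one. The log2 fold change of the median member was -0.23, with 38 above 0 and 53 below it, and that of the median feature was -0.04.

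The members with the lowest fold changes in H cells had their lowest level in KD2, where each had at most 2 UMIs. Whether KD2 lay below KD1 was not tested. WNGS01117529.1540802_0_covsplit stood at 150 CPM in Ctrl1, 611 in Ctrl2, 92.8 in KD1 and 0 in KD2, for a log2 fold change of -2.57 ± 1.12 (SE). WNGS01092210.1242726 stood at 891, 29.1, 204 and 0 CPM in the same order (-2.49 ± 1.54), so its groups overlapped. WNGS01001575.190916_10_covsplit stood at 347, 1222, 195 and 162 CPM (-2.25 ± 0.80). The first and the last of these had no overlap between groups, but KD2 gave only 0 and 2 of their UMIs.

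WNGS01133506.1629943_0_covsplit, named after its values were seen, stood at 3747, 1832, 1188 and 485 CPM in H cells (log2 fold change -2.24 ± 0.93 SE). With WNGS01001575.190916_10_covsplit it made up the pair at an unadjusted p under 0.05, at 0.044 and 0.024, and both had an adjusted p of 0.998 by edgeR.

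The 3 members with the highest fold changes were higher in both KD animals than in both controls. WNGS01092210.1242852_0_covsplit stood at 15.8 CPM in Ctrl1, 204 in Ctrl2, 353 in KD1 and 565 in KD2 (log2 fold change 2.08 ± 1.12 SE). WNGS01165751.2409227_31_covsplit stood at 78.9, 204, 445 and 646 CPM (1.69 ± 0.82). WNGS01165523.2374833_2_covsplit, with far more UMIs, stood at 844, 3112, 6968 and 3958 CPM (1.30 ± 0.80). For each of the 3 the lowest level was that of Ctrl1, and in the unused Ctrl3 they stood at 374, 0 and 8468 CPM. Ctrl3 thus lay above both KD animals for the last and below both controls for the second. Over all tested features the KD animals were both higher in 17.7% and both lower in 7.2%, and over the 91 members in 16 (17.6%) and 13 (14.3%).

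In other cells 62 members had enough counts to be tested, with all 6 animals. None of the 62 and none of 6344 features passed (0%) by edgeR, and DESeq2 also called 0. At an unadjusted p under 0.05 edgeR had 1 member, against 110 features (1.73%), and DESeq2 had 158 features. That member, WNGS01072140.1109832_0_covsplit, was also the only one whose groups did not overlap. It stood at 21.4, 8.60 and 11.99 CPM in Ctrl1 to Ctrl3, at 4.91 in KD1 and at 0 in KD2 and KD3, for 58 UMIs in controls and 6 in KD animals (log2 fold change -3.46 ± 1.15 SE, unadjusted p 0.013 and adjusted p 0.9999 by edgeR). KD animals were all lower in 1.62% of all features and all higher in 0.946%. In H cells the same member stood at 1404 and 320 CPM in Ctrl1 and Ctrl2 and at 315 and 404 in KD1 and KD2, where the groups overlapped. The median member stood at -0.23 on the log2 scale, with 19 above 0 and 43 below, and the median feature at -0.02.

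In all cells together, the level that a bulk sample would show, 93 members were tested. None of them and none of 7024 features passed (0%) by edgeR, and DESeq2 called 0. WNGS01133506.1629943_0_covsplit was the only member with an unadjusted p under 0.05 by edgeR, against 120 features (1.71%). DESeq2 had 4 members (4.3%) at that level, all lower in KD animals, against 163 features (2.32%). WNGS01133506.1629943_0_covsplit stood at 349, 121 and 107 CPM in the controls and at 175, 84.8 and 10.4 in KD1 to KD3. For no member did the groups fail to overlap, while KD animals were all lower in 1.72% of features and all higher in 0.812%. The median log2 fold change was -0.35 for members, with 31 above 0 and 62 below, and -0.04 for all features.

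**Figure D4:**
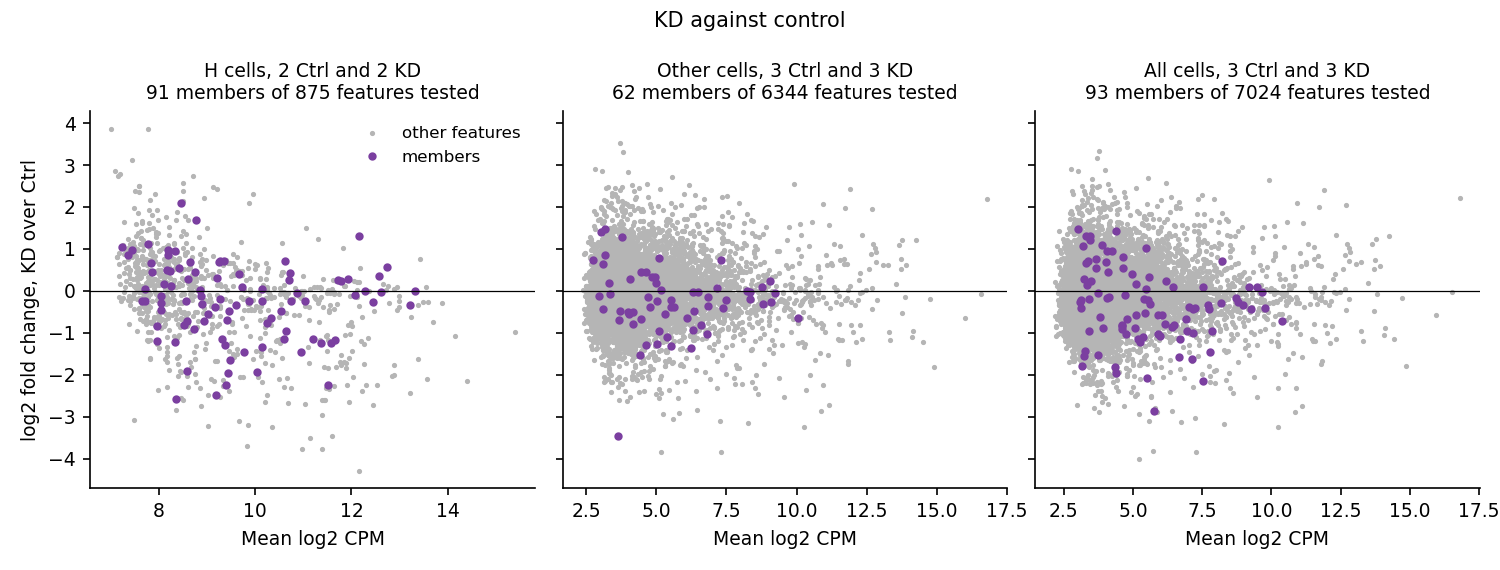
log2 fold change of KD over control animals (y axis) against mean log2 CPM (x axis) for every feature tested (grey) and the members (purple) in H cells, other cells and all cells. The members lie on both sides of 0 in each panel, with medians of -0.23, -0.23 and -0.35, and no feature passed the threshold.

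Leaving out Ctrl1 turned the median log2 fold change of members in other and in all cells. No single animal turned it in H cells. Without Ctrl1 it was still only -0.03 there, with 39 members above 0 and 40 below, in a fit with 1 control animal. Without KD3 the median in other cells was -1.6e-05, with 33 members above 0 and 34 below. In all cells the members took 1.12, 0.913 and 1.14% of UMIs in Ctrl1 to Ctrl3 (mean 1.06% ± 0.124 SD, n = 3) and 1.90, 1.64 and 0.193% in KD1 to KD3 (mean 1.24% ± 0.920 SD, n = 3). The mean share was therefore higher in KD animals while the median fold change was below 0. KD1 and KD2 lay above every control and KD3 below every control, in the same order as their shares of H cells against Ctrl2 and Ctrl3, but not against Ctrl1. With KD3 left out the median member stood at -0.04 in all cells, and with Ctrl1 left out at 0.46. In Ctrl2 and Ctrl3 against KD1 and KD2 alone, 85 of 89 members tested were above 0 with a median of 0.88, and 26 (29.2%) had an unadjusted p under 0.05, all higher in KD, against 153 of 6358 features (2.41%). No feature passed the adjusted threshold there. That choice left out the control with the most H cells and the KD animal with the fewest. It set controls at 2.26 and 2.89% H cells against KD animals at 8.06 and 8.03%. Members were chosen for high levels in H cells, so this choice cannot tell more H cells from more member RNA per cell.

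Outside the H cells the picture was alike. The members took 0.702% ± 0.123 (SD, n = 3) of UMIs in other cells of controls and 0.785% ± 0.518 (SD, n = 3) in those of KD animals, with KD1 and KD2 above and KD3 below every control. Without Ctrl1 the median member turned to 0.19, and in the 4 libraries Ctrl2, Ctrl3, KD1 and KD2 to 0.51. Within H cells the share was 9.21% ± 0.994 (SD, n = 2) in controls and 10.3% ± 1.96 (SD, n = 2) in KD animals, and the values of the groups overlapped. Without shared barcodes the members took 11.4% of H cell UMIs in KD1 and 8.73% in KD2, and 1.52, 2.26 and 2.22% of all UMIs in Ctrl3, KD1 and KD2. In other cells they then took 0.957% in Ctrl3, 1.30% in KD1 and 1.54% in KD2, and the KD mean was above the control mean by 0.238 points, against 0.0828 with them. The median log2 fold change of members was then -0.21 in H cells, -0.19 in other cells and -0.41 in all cells.

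**Figure D5:**
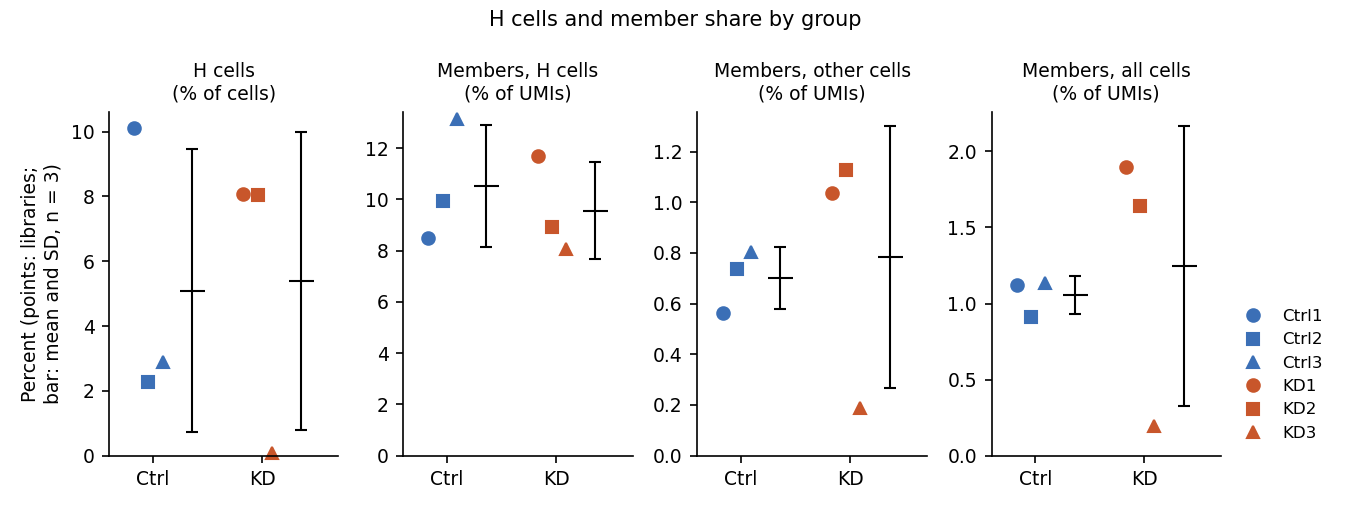
Share of H cells among cells and share of UMIs in the 100 members in H cells, other cells and all cells (y axes, %) for control (blue) and KD (orange) libraries, with the mean and SD of 3 libraries as bars. KD3 lies lowest in each panel, at 0.0697% H cells and 0.193% of all UMIs, and KD1 and KD2 lie above the 3 controls in other and in all cells.

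The share of member UMIs that lay in H cells differed between libraries, as the share of H cells did. H cells held 53.1, 21.0 and 31.0% of member UMIs in the 3 controls and 49.8% in KD1 and 35.7% in KD2, but 1.91% in KD3. In every library but Ctrl1 over 50% of the member UMIs were thus counted in cells outside the class. Whether that RNA was made in those cells or was free RNA in the droplets was not tested. Levels of the members in all cells cannot tell fewer H cells from less member RNA per cell.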

How the data were processed

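Hemocytes of 6 animals were profiled with the 10X Genomics droplet platform. The authors aligned reads and counted UMIs with Cell Ranger, at version 7.0.0 in the matrix headers and 4.0.0 in the submitters' processing notes, which also name Seurat 4.3.0. The deposited matrices hold raw whole-number counts without normalization. Library totals ran from 259605 UMIs in KD2 to 2487952 in KD3, and the lowest depths limit low members most.

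Cells with 100 to 2000 features were kept. No mitochondrial filter was applied, no doublet caller was run and doublets were not removed. CPM and ratios were computed from summed counts. Counts per animal were tested with edgeR 4.0.16 (R 4.3.3, limma 3.58.1), using glmQLFit and glmQLFTest, TMM, filterByExpr and Benjamini-Hochberg adjustment over all features tested, with DESeq2 1.42.0 as an alternative. The scripts were tested on simulated data with known changes. The simulated dispersion (spread between animals beyond counting error) was below the median over all features tested in each fit. That median was 0.47 in H cells and 0.33 in other and in all cells. The simulation thus does not show what these fits could find. The rest used Python 3.11.15, numpy 2.4.6, pandas 2.3.3 and scipy 1.17.1. The labels give 1 library per animal.

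Members named are the 10 with the highest ratio, the 5 with most UMIs in H cells, those at the edge of the list, the 3 highest and 3 lowest fold changes in H cells, the 2 widest and 2 narrowest ranges between libraries, and those on contigs with at least 3 members or defining features. Members, lists and tests were chosen with earlier results of these data known. No sequence of a member was at hand and none is printed.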

Additional observations from a re-analysis of the deposited data

Results flagged for a closer look

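Barcodes with under 100 features were left out of every comparison, and some of them carried the members. In Ctrl1, 22 of 2760 such barcodes passed the 1% cut on defining features, and members took 3.28% of their 3479 UMIs (exact 95% interval 2.71 to 3.92%, counting error only), against 0.422% in the remaining barcodes of that kind. In KD2, 10 of 364 passed, and members took 3.68% of their 1385 UMIs (2.75 to 4.81%), against 0.381%. Both shares were below the 8.51 and 8.91% of the H cells of the same libraries. No barcode under 100 features passed in the other 4 libraries, which had 5 to 139 of them.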

How the results depend on the processing

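The count of 0 features past the threshold held under most alternatives in the 3 comparisons of KD with control animals. In H cells the exceptions had 1 control animal left, so their spread came from the KD animals alone. Ctrl3 and KD3 had under 20 H cells, so the setting with only Ctrl2, Ctrl3, KD1 and KD2 repeated the fit without Ctrl1. Both tested 637 features, 79 of them members, and they are 1 exception. With an H cell cut of 2% there were 231 calls of 876 features (26.4%), with 18 of 91 members (19.8%). With only Ctrl2, Ctrl3, KD1 and KD2 there were 13 (1 member), and leaving out 1 animal gave 0 to 231. The 231 came without Ctrl2, of 1316 features (17.6%) and with 14 of 99 members (14.1%), and without Ctrl1 there were 13. Without a filter on low counts there were 13 calls in other cells and 14 in all cells, none of them members. Leaving out 1 animal gave 0 calls in other and in all cells. The replicate numbers did not pair the animals (correlations of -0.17, 0.090 and 0.10 between animals of 1 number), and with the replicate block the count was 0 in each comparison. The 6 members named for their fold change in H cells kept their sign in every setting that tested them. They were chosen as the extremes of the main fit and most settings reused its animals, so this is not a separate check. The KD minus control difference of the member share in H cells was 1.08 points over 2 control and 2 KD animals. At a cut of 0.5% it was -0.485, over 3 control and 2 KD animals. At 2% it was 2.90, over 1 control and 2 KD animals. With no minimum of H cells (chosen after seeing the data) it was -0.969, over 3 and 3. The animals changed with these settings, so the part of the cut itself was not tested. Without 1 animal the difference was -0.303 to 2.47. In other cells it was 0.0828 points, and -0.0886 to 0.381 without 1 animal. Of the 100 members, 64 remained with 100 added to the CPM, 51 with at least 200 UMIs and 48 after thinning to 150 UMIs, and 72 to 98 without 1 library. The higher minimum leaves the ratios as they were and can drop only members with under 200 UMIs. The 51 are thus set by UMI totals and do not test the ranking. After thinning 1865 features were eligible for the list, against 6304 in the main setting. Under 1000 UMIs were held by 82 members, and the part of depth in the remaining counts was not tested.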
